A study of Mus musculus with 4 samples.

Results

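The 10 genes described here belong to the Hippo-YAP pathway: the coactivators Yap1 and Wwtr1 (the gene of TAZ), the kinases Lats1 and Lats2, the DNA-binding partners Tead1 and Tead2, and the target genes Ctgf, Cyr61, Ankrd1 and Amotl2. They were taken by the gene name the array design gives to each probe, which found 14 of the 39429 non-control probes. All 14 probes were well above background on all 4 arrays, so no member was lost to the filter on dim probes. Every probe is reported, and a gene with more than 1 probe takes its call from the brightest of them.

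The study asked which transcripts depend on p21-activated kinase 1 (Pak1) in Her2-driven tumor cells. Single-color Agilent arrays with 60-base probes measured the RNA of 4 mouse samples. All cells were derived from mammary tumors of MMTV-Neu mice, in which the mouse mammary tumor virus promoter drives the Neu (Her2) oncogene in mammary epithelium, so both groups carry Neu. One group of 2 samples was labelled Pak1 -/- and the other group of 2 samples Pak1 +/+. Both were grown in a low calcium medium with 5% horse serum, kept for 3 h without serum and then given epidermal growth factor (EGF) for 15 min. The design text speaks of 2 tumors per group whereas the methods speak of cell lines, and the age of the mice is not given in the sources used here. The p-values therefore measure only the spread between these samples, which may in part be technical.

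In the Hippo pathway, a kinase cascade that ends in LATS1 and LATS2 phosphorylates the coactivators YAP and TAZ and keeps them out of the nucleus. When the cascade is off, for example in spread cells under tension, YAP and TAZ enter the nucleus, bind the TEAD proteins and switch on genes such as Ctgf, Cyr61 and Ankrd1. The pathway acts mainly through phosphorylation and location of proteins, which an RNA array does not measure. In the mammary gland YAP and TAZ are known for roles in growth, in basal cell character and in tumor progression.

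As a check of the labels, the only probe named Pak1 (A_52_P663600, mm9 chr7:105060220-105060279) had a normalized log2 intensity of 12.21 and 12.25 on the arrays labelled Pak1 -/-, and of 12.04 on both of those labelled Pak1 +/+. The difference of 0.19 (SE 0.07, adjusted p = 0.070) did not pass the threshold and was not in the direction of a loss. Whether the probe lies within the deleted part of the gene is not given in the sources used here, so each direction below rests on the labels. The 4 arrays lay side by side on 1 slide, with Pak1 -/- at one end and Pak1 +/+ at the other, and place on the slide and genotype cannot be told apart. Between 62.2% and 70.4% of the probes were well above background. In these cells the groups differed widely, and 51.9% of the 27229 probes tested passed the threshold, an adjusted p under 0.05.

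Of the 10 members, 7 were higher in the arrays labelled Pak1 -/-, namely Tead2, Ankrd1, Cyr61, Ctgf, Lats2, Wwtr1 and Amotl2. None was lower, and Yap1, Lats1 and Tead1 did not pass the test. Among all 21969 genes tested with their brightest probe, 22.8% were higher and 28.2% were lower. Tead2, Ankrd1, Cyr61 and Ctgf were also at least 2-fold higher, which held for 7.00% of all genes, while 5.62% were at least 2-fold lower. The median log2 difference of the members was 0.77, beside -0.05 over all genes tested. The values of the groups did not overlap for 9 members, but with 2 arrays a group this was also so for 77.6% of all genes, and it says little by itself.

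**Figure D1:**
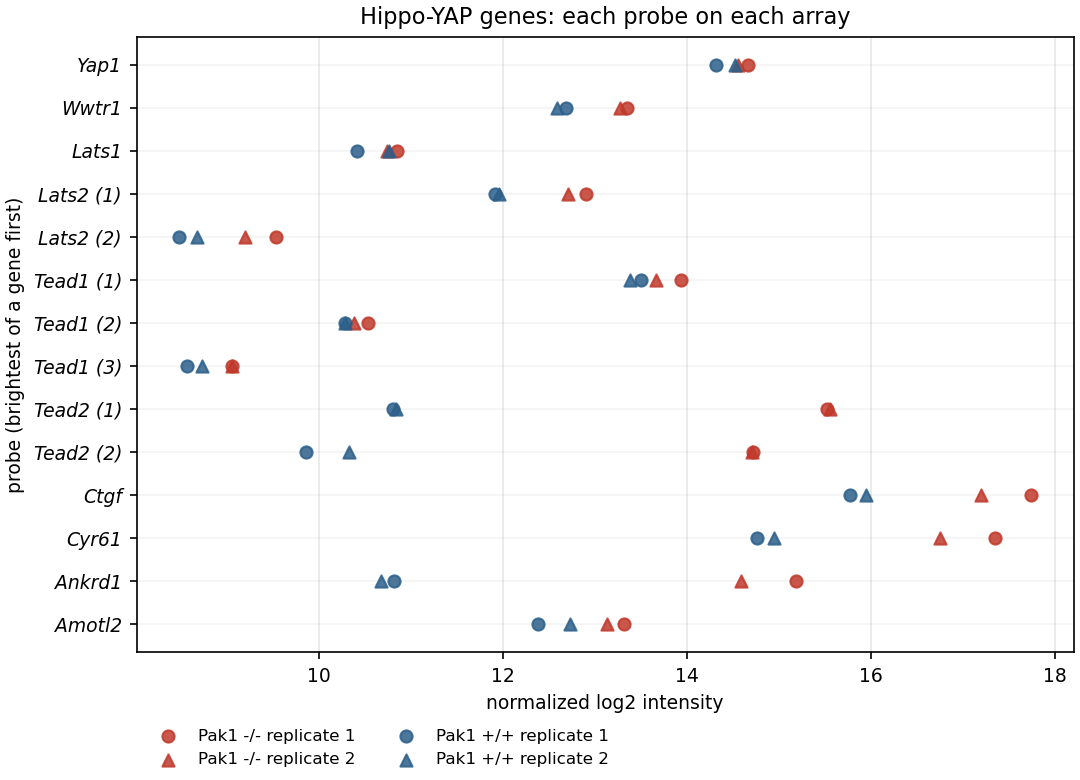
Normalized log2 intensity (horizontal axis) of each of the 14 probes of the 10 Hippo-YAP genes (vertical axis) on each of the 4 arrays. Red marks are the arrays labelled Pak1 -/- and blue marks those labelled Pak1 +/+, with circles for replicate 1 and triangles for replicate 2. Both probes of Tead2 and the probe of Ankrd1 show a wide gap between the colors, and in Lats1 alone the colors overlap. Levels of different probes cannot be compared.

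The coactivators came first. Yap1 encodes the coactivator YAP, and its probe (A_55_P1953459, mm9 chr9:7932025-7932084) read 14.66 and 14.56 in Pak1 -/- and 14.32 and 14.52 in Pak1 +/+ on the normalized log2 scale. The groups lay next to each other without overlap, with only a narrow gap between the lower Pak1 -/- array and the higher Pak1 +/+ array. The log2 difference of 0.19 (SE 0.10, 95% interval -0.08 to 0.45, adjusted p = 0.18) did not pass the test, and the interval leaves room for a difference in either direction. Wwtr1 encodes TAZ, the paralog of YAP. Its probe (A_66_P115116, mm9 chr3:57259999-57260058) read 13.35 and 13.27 in Pak1 -/- against 12.69 and 12.59 in Pak1 +/+. Both Pak1 -/- arrays were thus clearly above both Pak1 +/+ arrays, and the log2 difference was 0.67 (SE 0.08, adjusted p = 0.0027), a 1.59-fold higher intensity. Whether the differences of Yap1 and Wwtr1 themselves differ was not tested.

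Next come the kinases that inhibit YAP and TAZ. Lats1 (A_52_P642801, mm9 chr10:7432671-7432730) read 10.85 and 10.74 in Pak1 -/- and 10.42 and 10.77 in Pak1 +/+. The second Pak1 +/+ array lay between the Pak1 -/- arrays, and the log2 difference of 0.20 (SE 0.14, 95% interval -0.16 to 0.57, adjusted p = 0.27) did not pass. Lats2, which is itself known as a target of YAP that feeds back on it, had 2 probes whose positions on chromosome 14 lie far apart. Their first 30 of 60 bases are shown because they are separate readings of the gene:
Lats2 A_52_P315345: tcaaggatggaacacatcccattttcatta
Lats2 A_55_P2002351: ttgcagtgtgtgcgaattcaagctcggacc
The brighter probe (A_52_P315345, mm9 chr14:58308807-58308866) read 12.91 and 12.71 in Pak1 -/- and 11.92 and 11.96 in Pak1 +/+. The dimmer probe (A_55_P2002351, mm9 chr14:58341225-58341284) read 9.53 and 9.20 against 8.48 and 8.68. In both probes the groups stood apart with Pak1 -/- above. The log2 difference was 0.87 (SE 0.09, adjusted p = 0.0023) in the brighter probe and 0.79 (SE 0.14, adjusted p = 0.011) in the dimmer, so that these 2 readings of Lats2 were alike in direction and size.

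The TEAD proteins bring YAP and TAZ to DNA. Tead1 had 3 probes, whose first 30 of 60 bases were:
Tead1 A_51_P214423: ttcaaaaggcatttggctaaacctcccggc
Tead1 A_55_P2011390: tatatacacacacatatgtgcacacacaca
Tead1 A_55_P2159885: gtattttctctaagggcatctttccataag
They are shown because they did not give the same call. The brightest (A_51_P214423, mm9 chr7:120049844-120049903) read 13.93 and 13.66 in Pak1 -/- and 13.50 and 13.38 in Pak1 +/+, and its log2 difference of 0.36 (SE 0.12, 95% interval 0.05 to 0.67) narrowly missed the threshold at an adjusted p of 0.057. The second (A_55_P2011390, mm9 chr7:120042204-120042263), which starts with a run of alternating bases, read 10.53 and 10.38 against 10.28 and 10.29, and its difference of 0.17 (adjusted p = 0.14) did not pass. The third (A_55_P2159885, mm9 chr7:120043445-120043504) read 9.05 on both Pak1 -/- arrays against 8.57 and 8.73, and its difference of 0.41 (SE 0.08, adjusted p = 0.016) passed. All 3 Tead1 probes had both Pak1 -/- arrays above both Pak1 +/+ arrays, and the call for the gene depended on the probe. It also depended on the processing, since Tead1 passed in 7 of 15 alternative fits, with log2 differences of 0.31 to 0.49 in those 7 and of 0.23 to 0.49 over all 15.

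Tead2, a TEAD gene best known from the early embryo, had the largest difference of the 10 members. It was read by 2 probes whose positions on chromosome 7 lie close together, and the first 30 of their 60 bases show that they are not the same oligonucleotide:
Tead2 A_55_P2129271: caccttcctttccccaagagtgatggttta
Tead2 A_55_P2076846: gtgacgtcacaacccgaagataatgttttc
The brighter probe (A_55_P2129271, mm9 chr7:52488930-52488989) read 15.53 and 15.55 in Pak1 -/- and 10.80 and 10.84 in Pak1 +/+. The other probe (A_55_P2076846, mm9 chr7:52488742-52488801) read 14.72 and 14.71 against 9.86 and 10.32. The groups were far apart in both probes. The arrays of each group were almost alike in the brighter probe, whereas in the other probe the Pak1 +/+ arrays differed by 0.46. The log2 difference of the brighter probe was 4.72 (SE 0.07, 95% interval 4.54 to 4.90, adjusted p = 4.2e-05), a 26.4-fold higher intensity in Pak1 -/-, and that of the other probe was 4.62 (SE 0.17, adjusted p = 0.00016). Tead2 ranked 70 of the 21969 genes by its difference, so that 0.314% of them had a larger one. Tead2 was not silent in Pak1 +/+, where both probes were well above background on both arrays.

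The 4 target genes were examined last. Ctgf encodes a secreted matrix-associated protein of the CCN family (its current symbol is Ccn2), and its probe (A_51_P157042, mm9 chr10:24318281-24318340) read 17.74 and 17.20 in Pak1 -/- and 15.77 and 15.95 in Pak1 +/+. The lower Pak1 -/- array was still well above both Pak1 +/+ arrays, and the log2 difference was 1.61 (SE 0.20, 95% interval 1.09 to 2.14, adjusted p = 0.0032), or 3.06-fold. Cyr61 encodes another CCN protein (Ccn1). Its probe (A_51_P252859, mm9 chr3:145310187-145310246) read 17.34 and 16.75 against 14.76 and 14.94, so that again Pak1 -/- was above Pak1 +/+ on every array. The log2 difference was 2.19 (SE 0.22, 95% interval 1.63 to 2.76, adjusted p = 0.0017), or 4.58-fold.

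Ankrd1 encodes an ankyrin repeat protein of muscle and stretched cells that acts in the nucleus and at the sarcomere. Its probe (A_52_P120803, mm9 chr19:36186809-36186868) read 15.19 and 14.58 in Pak1 -/- and 10.81 and 10.68 in Pak1 +/+. The gap between the groups was several times the gap within either of them. The log2 difference was 4.14 (SE 0.21, 95% interval 3.58 to 4.70, adjusted p = 0.00035), or 17.6-fold, and 0.442% of all genes had a larger one. Amotl2 encodes an angiomotin-like scaffold that binds YAP and holds it back, and is known both as target and as inhibitor. Its probe (A_51_P348804, mm9 chr9:102635025-102635084) read 13.32 and 13.13 against 12.38 and 12.72. The groups did not overlap, but the Pak1 +/+ arrays differed from each other by 0.34, a sizeable part of the difference between the groups. That log2 difference was 0.67 (SE 0.14, 95% interval 0.29 to 1.05, adjusted p = 0.018), and it lost the call without Pak1 -/- replicate 1 (0.57, adjusted p = 0.094) and without Pak1 -/- replicate 2 (0.76, adjusted p = 0.051). A fit without 1 array has 1 residual degree of freedom and assumes that the lone array of its group varies like the other group.

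**Figure D2:**
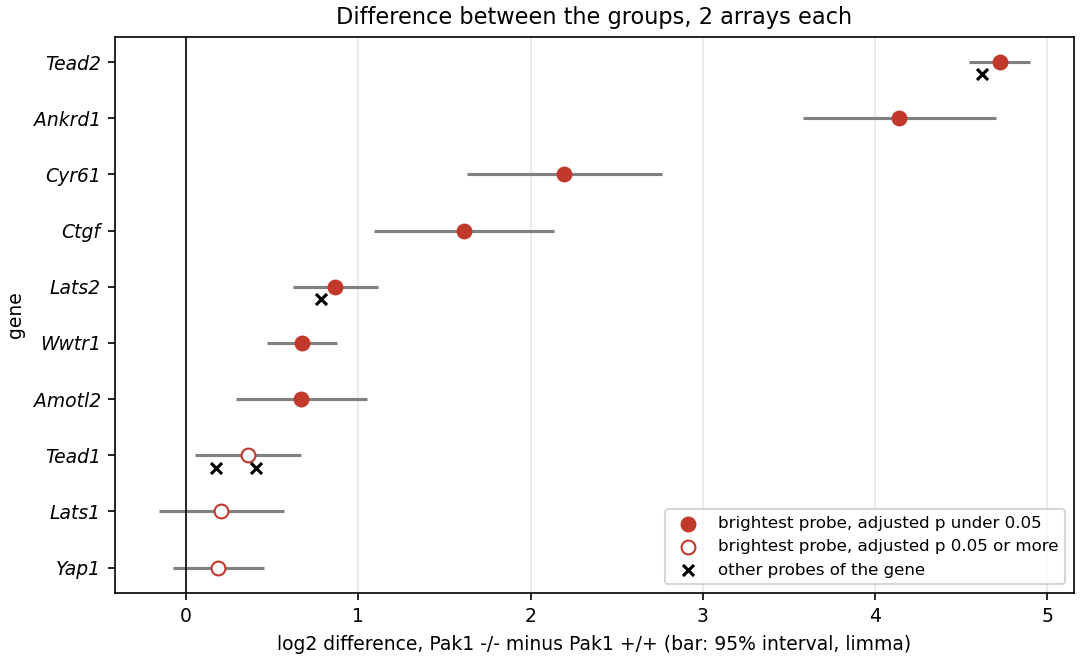
Log2 difference between the arrays labelled Pak1 -/- and Pak1 +/+ (horizontal axis, n = 2 arrays each) for the 10 Hippo-YAP genes (vertical axis), ordered by size. Circles are the brightest probe of a gene with its 95% interval from limma, filled where the adjusted p was under 0.05, and crosses are the other probes of the gene. Tead2 (4.72) and Ankrd1 (4.14) stand to the right, and the intervals of Lats1 and Yap1 include 0.

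The arrays labelled Pak1 -/- also differed from each other in the target genes. Replicate 1 was above replicate 2 by 0.54 in Ctgf, 0.59 in Cyr61 and 0.60 in Ankrd1 on the log2 scale. Only 2.61%, 2.01% and 1.95% of all genes, respectively, differed more between these 2 arrays, and the median size of that difference over the probes tested was 0.109. In all, 9 of the 10 members were higher on Pak1 -/- replicate 1 than on replicate 2, with Tead2 as the exception, beside 50.3% of all genes. In Pak1 +/+, 3 of the 10 were higher on replicate 1, beside 51.2% of all genes. Tead2, with a difference of 0.02 between the Pak1 -/- arrays, did not share the spread of the 3 target genes.

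The promoter sequence bears on the targets because TEAD proteins bind a short element, GGAATG or its reverse complement CATTCC. This motif was searched on both strands in the 250 bases before the annotated starts in RefSeq (GRCm38.p6). It was found in 12.6% of all 32851 such windows. Of the members, 8 genes were in the table with 10 windows, and 6 of these windows held a match. They belonged to 5 genes, namely Ankrd1, Cyr61, Amotl2, Yap1 and Wwtr1. Ankrd1 held 2 matches, at 210 to 205 and at 123 to 118 bases before its start. The match of Cyr61 lay at 103 to 98 bases and that of Amotl2 at 65 to 60 bases, both on the other strand. Yap1 had its match at 141 to 136 bases. The match of Wwtr1 lay 136 to 131 bases before one start and 170 to 165 bases before the other, and these are the same bases since the windows overlap. Lats1, Lats2 and Tead2 had no match in these windows. The windows of the targets with a match and of Tead2, the member with the largest difference and no match, read as follows on the strand of the gene, 5′ to 3′, with the motif in capitals.
Ankrd1 (chr19:36119845-36120094, minus strand): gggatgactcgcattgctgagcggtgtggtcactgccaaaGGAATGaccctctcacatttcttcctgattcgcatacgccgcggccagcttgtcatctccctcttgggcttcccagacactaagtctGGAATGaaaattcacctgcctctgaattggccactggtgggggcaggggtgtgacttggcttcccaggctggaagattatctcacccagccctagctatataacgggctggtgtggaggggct
Cyr61 (chr3:145649986-145650235, minus strand): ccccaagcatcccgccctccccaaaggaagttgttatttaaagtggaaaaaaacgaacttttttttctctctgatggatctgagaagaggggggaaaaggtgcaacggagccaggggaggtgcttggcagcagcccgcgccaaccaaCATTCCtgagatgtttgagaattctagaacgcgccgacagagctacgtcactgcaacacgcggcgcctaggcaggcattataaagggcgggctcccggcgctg
Amotl2 (chr9:102717554-102717803, plus strand): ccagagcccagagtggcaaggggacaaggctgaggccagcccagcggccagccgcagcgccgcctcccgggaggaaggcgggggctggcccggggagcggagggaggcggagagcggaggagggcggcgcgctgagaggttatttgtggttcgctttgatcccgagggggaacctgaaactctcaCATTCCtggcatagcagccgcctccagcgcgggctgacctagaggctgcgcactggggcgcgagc
Tead2 (chr7:45215542-45215791, plus strand): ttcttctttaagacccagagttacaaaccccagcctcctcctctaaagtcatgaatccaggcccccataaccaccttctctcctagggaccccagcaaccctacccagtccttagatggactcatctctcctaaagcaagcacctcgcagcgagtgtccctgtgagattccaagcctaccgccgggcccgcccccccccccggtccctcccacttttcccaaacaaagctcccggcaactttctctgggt
A match of these letters is a description of the sequence and not a measured binding site. A window without a match likewise says nothing of binding elsewhere at the gene.

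**Figure D3:**
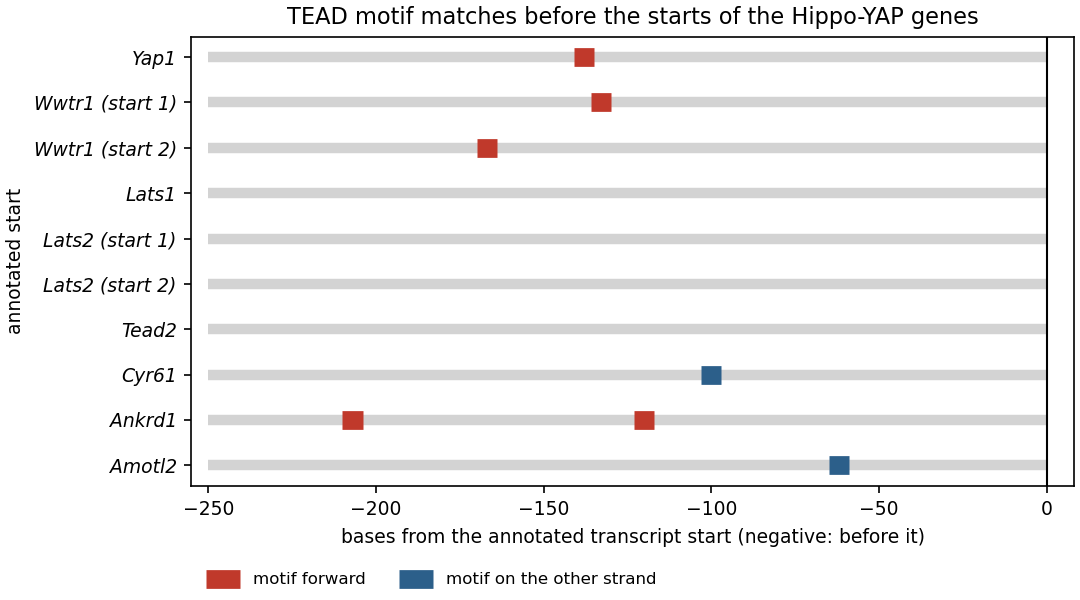
Matches to the TEAD motif in the 250 bases before each annotated start of the Hippo-YAP genes. The horizontal axis is the distance from the start in bases, each grey bar is 1 of the 10 windows, and boxes mark matches forward (red) or on the other strand (blue). Ankrd1 holds 2 boxes, and the windows of Lats1, Lats2 and Tead2 are empty.

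The rest of the kinase cassette was read beside the shares of all genes, 22.8% higher and 28.2% lower, and a departure from them was not tested. Of 14 genes of the MST, MAP4K, TAOK and NDR kinases and their scaffolds, 2 were higher, 5 were lower and 7 did not pass, which is 14.3% and 35.7% beside the shares of all genes given above, with a median difference of -0.02. Those that were lower in Pak1 -/- were Sav1 (-0.85, adjusted p = 0.0010), the scaffold of the MST kinases, Wwc1 (-0.73, adjusted p = 0.0062), also called Kibra, the LATS cofactors Mob1b (-0.45, adjusted p = 0.0091) and Mob1a (-0.39, adjusted p = 0.013), and the kinase Taok3 (-0.38, adjusted p = 0.042). Those that were higher were the kinases Map4k4 (0.49, adjusted p = 0.0079) and Stk38l (0.48, adjusted p = 0.0093). No gene of this list differed 2-fold. Without Pak1 +/+ replicate 1 only 4 of the 14 passed instead of 7.

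Of 24 upstream regulators at junctions and in cell polarity, 22 were tested, of which 11 were higher (50%, beside 22.8% of all genes), 4 were lower (18.2%, beside 28.2%) and 7 did not pass, with a median difference of 0.24. Dchs1 and Llgl1 were dim (not well above background) on each of the 4 arrays. Fat4, an atypical cadherin, read 9.62 and 9.28 in Pak1 -/-, and 6.12 on both Pak1 +/+ arrays, where it was not well above background. It was at least 6.00-fold higher in Pak1 -/- (measured means 9.45 and 6.12, adjusted p = 0.00018), and it passed the filter on dim probes through Pak1 -/- alone. Such a bound sets the mean of the brighter group against the lowest signal that counted as well above background on the dimmer arrays, or the probe's own signal where that was higher. Ptpn14, a phosphatase that binds YAP and is also known as its target, read 10.28 and 10.34 against 7.82 and 7.71, which is 2.54 higher on the log2 scale (SE 0.08, adjusted p = 0.00012). The other leading genes were Rassf1 (1.03), which encodes a scaffold of the MST kinases, Ajuba (1.03), a LIM protein that binds LATS, and the cadherin Fat1 (0.79), with adjusted p from 0.00093 to 0.0066. Lower in Pak1 -/- were the polarity genes Llgl2 (-0.60, adjusted p = 0.0038), Pard3 (-0.45, adjusted p = 0.021) and Crb3 (-0.30, adjusted p = 0.030), and the LIM protein gene Limd1 (-0.40, adjusted p = 0.0077). The other 3 probes of Pard3 differed the other way, by 0.16 to 0.24.

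Among the other TEAD genes and the vestigial-like genes, which compete with YAP for TEAD, 4 of 6 were tested. Tead4 read 8.41 and 8.65 in Pak1 -/- against 9.98 and 9.73, and was lower by a log2 difference of -1.33 (SE 0.13, adjusted p = 0.0018), while Tead2 was higher. Vgll4, a repressor of TEAD activity, read 10.34 and 10.30 against 9.41 and 9.27, and was higher by 0.97 (SE 0.08, adjusted p = 0.0012). Tead3 (0.21, adjusted p = 0.093) and Vgll1 (-0.16, adjusted p = 0.13) did not pass. Vgll2 was dim on all 4 arrays, and Vgll3 stood well above background on only 1. Of the 4 tested, 1 was thus higher and 1 lower, which is 25% each, beside 22.8% and 28.2% of all genes.

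A list of 23 further genes known as YAP and TAZ targets was examined to see whether the rise of Ctgf, Cyr61 and Ankrd1 extended to them. Of these genes 7 were higher, 7 were lower and 9 did not pass, which is 30.4% in each direction beside 22.8% and 28.2% of all genes, with a median difference of 0.05. Ptpn14, Fjx1 and Amotl1 also stand among the upstream regulators. Leading upward were Ptpn14, the coagulation initiator F3 (1.95, adjusted p = 0.00034), the growth factor binding gene Crim1 (1.73, adjusted p = 0.00018) and the RNA-binding gene Rbms3 (0.93, adjusted p = 0.0032). Igfbp3, which encodes a carrier of insulin-like growth factors, was not well above background in Pak1 +/+ and was at least 1.05-fold higher (measured means 6.94 and 6.18, adjusted p = 0.0015). Igfbp3, Foxf2 and Ccdc80 (the last named after its values were seen) were bright in 1 group only and passed the filter on dim probes through that group. With a filter on all 4 arrays, 10 genes of the list were called instead of 14. Leading downward were the receptor tyrosine kinase Axl (-1.65, adjusted p = 0.00040), the inhibitor of apoptosis Birc5 (-1.07, adjusted p = 0.0015), which is also a gene of dividing cells, the collagen Col8a1 (-0.95, adjusted p = 0.0022) and the EGF family ligand Areg (-0.89, adjusted p = 0.037). Foxf2, a forkhead factor, was not well above background in Pak1 -/- and was at least 1.56-fold lower there (measured means 6.27 and 7.26, adjusted p = 0.00068). The 7 higher and 7 lower genes include Igfbp3, Ccdc80 and Foxf2, and also Rbms3, which was well above background on 3 arrays. Among the called genes well above background on all 4 arrays, more were lower than higher. The 4 target genes among the members were all higher, and whether the wider list differs from them was not tested.

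Ctgf, Cyr61 and Ankrd1 are also known to respond to serum response factor and its MRTF cofactors, which answer to actin. Of 15 targets of these factors, 11 were higher in Pak1 -/-, 1 was lower and 3 did not pass, with a median difference of 0.96. The share that was higher was 73.3%, beside 22.8% of all genes. The actin-linked Filip1l (2.40, adjusted p = 0.00013), smooth muscle actin Acta2 (1.69, adjusted p = 0.0026), the myosin light chain Myl9 (1.36, adjusted p = 0.0087), tropomyosin Tpm1 (1.08, adjusted p = 0.0017) and filamin Flna (1.07, adjusted p = 0.0038) led. Tgfb1i1, which encodes the focal adhesion protein Hic-5, went the other way, reading 6.80 and 6.82 in Pak1 -/-, where only 1 array was well above background, against 10.71 and 10.64 (difference -3.87, adjusted p = 4.7e-05). Fhl2 (0.44, adjusted p = 0.060), Cnn1 (0.04, adjusted p = 0.83) and Tagln (-0.20, adjusted p = 0.13) did not pass.

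**Figure D4:**
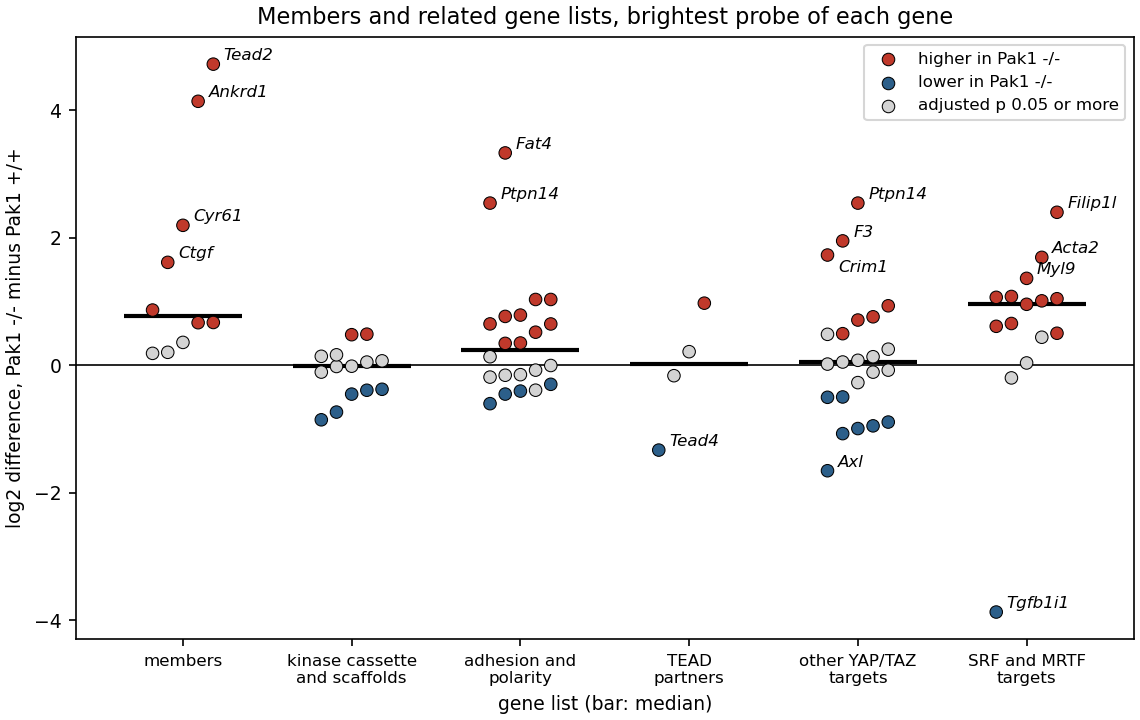
Log2 difference between the arrays labelled Pak1 -/- and Pak1 +/+ (vertical axis) for each tested gene of the 10 Hippo-YAP members and of 5 related lists (horizontal axis), by its brightest probe. Red genes were higher in Pak1 -/- and blue genes lower at an adjusted p under 0.05, grey genes did not pass, and black bars are medians. The medians of the members (0.77) and of the SRF and MRTF targets (0.96) lie above those of the kinase cassette (-0.02) and of the other YAP/TAZ targets (0.05).

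Markers of other cell types were read beside these results, with the shares over all genes (22.8% higher, 28.2% lower) as background. The luminal epithelial genes Krt8, Krt18, Epcam, Cldn3 and Cldn7 were well above background throughout. Of 12 luminal markers 4 were higher (33.3%), 2 were lower (16.7%) and 6 did not pass. Summed over the list, the linear luminal intensity was 1.31e6 to 1.33e6 in Pak1 -/- and 1.21e6 to 1.23e6 in Pak1 +/+. Without Krt8 and Krt18, both higher, the luminal sum turned to 401844 to 441886 against 535297 to 556120, and without Krt7 as well it was 311672 to 348861 against 341304 to 358190. Higher were Cdh1 (1.19, adjusted p = 0.0012), Krt8 (0.57, adjusted p = 0.0029), Gata3 (0.45, adjusted p = 0.0066) and Krt18 (0.27, adjusted p = 0.027), and lower were Krt7 (-1.10, adjusted p = 0.00056) and Elf3 (-0.32, adjusted p = 0.044). Of 9 basal epithelial markers 8 were tested and 7 were higher in Pak1 -/- (87.5%), none lower, with a summed intensity of 214519 to 246150 against 131291 to 133769. Of 12 fibroblast markers 7 were tested and 5 were higher (71.4%), none lower. These were Fn1 (6.61, adjusted p = 0.00027), Sparc (3.32, adjusted p = 0.00043), Vim (1.45, adjusted p = 0.0033), Col1a1 (1.12, adjusted p = 0.0051), and Postn, which was dim in Pak1 +/+ and at least 10.4-fold higher (measured means 10.25 and 6.27, adjusted p = 0.0018) and passed the filter through Pak1 -/- alone. Col1a2 (0.03, adjusted p = 0.82) and Pdgfra (-0.16, adjusted p = 0.20) were well above background on all 4 arrays and did not pass. Col3a1, Dcn, Lum and Pdgfrb were dim on all 4 arrays, and Thy1 on all but 1. The fibroblast sum was 136085 to 224174 against 24598 to 26565, most of it from Fn1 and Vim, and without these it was 6260 to 9001 against 1766 to 1811. None of 3 endothelial markers tested passed (summed intensity 10077 to 10452 against 9137 to 10940), and Tek, Tie1 and Emcn were dim on all 4 arrays. Kdr made up 88.8% to 90.6% of that sum on each array. Its brightest probe differed by 0.04, whereas its other probe differed by 1.37. Of 7 leukocyte markers tested 3 were lower in Pak1 -/- (42.9%) and none higher, with a sum of 106274 to 121199 against 199791 to 215567. Without Cd14, which was lower by a log2 difference of -1.70 (adjusted p = 0.00054), the leukocyte sum was 52334 to 75001 against 43723 to 48179. Itgam had a difference of 0.49 and did not pass (adjusted p = 0.11), and Cd2 was dim on all 4 arrays. On Pak1 -/- replicate 1 the sums of all 5 related lists were larger than on replicate 2. So were those of the basal, fibroblast, endothelial and leukocyte markers, while the luminal sum was smaller. The sizes were unlike. The fibroblast sum was 224174 and 136085 on replicates 1 and 2, but the TEAD partner sum was 2586 and 2558. Among the leukocyte markers Itgam was larger on replicate 1 (68919 and 46552) and Cd14 was smaller (46198 and 53940). The part of the cell type markers in the differences of the Hippo-YAP genes was not tested. In bulk RNA, fewer cells of a type and less RNA per cell cannot be told apart.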

How the data were processed

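The members and the gene lists were chosen with earlier results of these data known. The scanner files deposited for the 4 arrays give each spot's linear intensity, as Feature Extraction 9.5.3.1 wrote it per the file headers, with no normalization between arrays. A second table from the authors, with background-corrected and quantile-normalized log2 values, served as an alternative (lowest r with the values used here 0.9998, across probes).

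From the scanner files, background was corrected by normexp with an offset of 50 in limma 3.58.1 (R 4.3.3), and control spots were left out. Log2 intensities were then quantile normalized, and spots of a probe were averaged without outlier spots. A probe was kept if 2 or more of the 4 arrays read it well above background. Genotype was fitted with lmFit and eBayes of limma (two-sided, 2 residual and 2.62 prior degrees of freedom), with Benjamini-Hochberg adjustment over the 27229 probes kept and a threshold of 0.05. The number of arrays limits the precision, and the offset understates changes of dim probes. The fit and its adjustment were tested on simulated data before use, but the background, normalization and filter steps were not. No block for slide or scan was needed, since there was 1 of each.

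The brightest probe stood for a gene. Genes were named by the files or by an older symbol of the list gene. Probe coordinates are those of the files (mm9), and promoters are RefSeq's (GRCm38.p6), with Cyr61 under its symbol Ccn1 and without Tead1 and Ctgf. Named were all members, Pak1 and, of each related list, up to 5 genes past the threshold in each direction by size, with those not past it where they were 5 or fewer. Summed intensities add the linear values of the brightest probes. The alternatives changed the background, scaling, filter, threshold, probe rule, replicate block and samples, and include leaving out each array in turn.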

Additional observations from a re-analysis of the deposited data

How the results depend on the processing

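Over 17 alternatives, 157 of 170 single values of the members kept their direction and their side of the threshold, and none reversed. Yap1 (0.09 to 0.29) and Lats1 (0.03 to 0.38) did not pass in any of the 15 alternative fits, and Wwtr1, Lats2, Tead2, Ctgf, Cyr61 and Ankrd1 passed in all 15, 4 of which leave out 1 array and take the residual spread from the other group alone, beside the shared prior. Tead1 passed with cyclic loess (0.45), the authors' table (0.37), the filter on all 4 arrays, an intensity trend, the mean over its probes (0.31) and without Pak1 -/- replicate 2 (0.49). Amotl2 was lost without either Pak1 -/- array and at an adjusted p under 0.01. With at least 2-fold added to the threshold, which removes small differences by construction, 4 members were called. In the related lists this held for 0 genes of the kinase cassette, 4 upstream regulators, 1 TEAD partner, 5 other YAP/TAZ targets and 8 SRF and MRTF targets. Of all probes, 8878 passed at an adjusted p under 0.01 and 3413 with the 2-fold limit, beside 14132. Leaving out each array in turn, 4 to 6 kinase cassette genes passed beside 7, and 10312 to 12168 probes passed overall. The numbers of the replicates did not pair the samples (r = -0.028 between the replicate differences of the groups). With the replicate block 8 members were higher, since Tead1 passed (0.36, adjusted p = 0.035), and 13202 probes passed. The cause of these shifts was not tested. With 2 arrays a group, small differences such as those of Yap1 and Lats1 were not resolved.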
